A study of Homo sapiens
Mus musculus and Mus musculus and Homo sapiens with 3 samples.

Results

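The cells described here are in vitro motor neurons that held transcripts of SST, the gene of the peptide hormone somatostatin, set against motor neurons of the same libraries with none. A motor neuron was a cell with at least 5 UMIs (counted molecules) of the neurofilament gene NEFM and at least 1 UMI in the sum of the motor neuron genes ISL1, MNX1, LHX3 and SLC18A3. Of 8683 cells used, 207 such cells held 2 or more SST UMIs (SST-positive) and 1062 held none (SST-negative). By library part, the SST-positive cells numbered 65 in human replicate 1, 87 in human replicate 2, 9 in mouse replicate 1 and 46 in mouse replicate 2, against 312, 315, 118 and 317 SST-negative cells. The cells were thus chosen by their counts of SST, NEFM, ISL1, MNX1, LHX3 and SLC18A3, and the levels of these genes are given as a description with no test.

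Human and mouse pluripotent stem cells were differentiated towards motor neurons as embryoid bodies, and single cells were read with 10x Genomics 3' libraries. Human replicate 1 was the line NCRM1 and human replicate 2 the line RUES1, each given as human iPS cells, and both mouse replicates were ES cells of the strain C57BL/6. Human replicate 1 and mouse replicate 1 were the parts of 1 mixed library. All cells, SST-positive and SST-negative alike, carried a lentiviral barcode behind a GFP driven by the CAGGS promoter, and only GFP+ cells were collected by sorting; cells of several days of differentiation were pooled with no day given per cell, and each human line stands for itself only. The 4 parts held 1881 to 2783 cells and 28577630 to 83969715 UMIs each. Cell barcodes found in both parts of the mixed library (60) were left out. No other pair of parts shared more than 2 barcodes. Mouse replicate 1 stood apart in having only 9 SST-positive cells, fewer than the minimum of 10 per side, and did not enter the tests. Its values are given beside those of the tested parts for most named genes, and the counts over all parts are given with and without it. Nothing states that the parts were separate cultures, so each p-value measures only the spread between these libraries, which may be technical.

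Somatostatin is made as a precursor that enzymes of the secretory pathway cut to the active peptide, which is stored in dense core vesicles and, once released, acts on inhibitory G protein-coupled receptors. Spinal motor neurons settle in columns that project to different targets: neurons of the median column keep the LIM homeodomain factors LHX3 and LHX4 and innervate trunk muscle, while the forkhead factor FOXP1 marks the limb-innervating lateral column and the preganglionic column that innervates sympathetic ganglia. A motor neuron arises from an OLIG2-expressing progenitor, passes through a stage of proneural and Notch pathway genes and then turns on neurofilaments and cholinergic genes.

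The sequence that the SST transcript codes for is shown because it is the product that defines the cells. Mouse Sst lies on the minus strand at chr16:23889573-23890958 (GRCm38, GENCODE M21) with 2 exons, and human SST at chr3:187668912-187670394 (GRCh38.p14, RefSeq). The last 84 coding bases before the stop codon of mouse Sst, at chr16:23889732-23889815, are given 5′ to 3′ on the coding strand, with the 42 bases of the mature 14-residue peptide in capitals.
Sst coding end: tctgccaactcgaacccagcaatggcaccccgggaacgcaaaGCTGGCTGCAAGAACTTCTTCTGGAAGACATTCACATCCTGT
The whole coding sequence spans 348 bases for a precursor of 116 residues, so that the capitals form only its far carboxyl end. A shorter peptide is the end of the longer 28-residue form, which the whole printed stretch encodes.

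SST was found in a minority of motor neurons of every part. The share of gated motor neurons with 2 or more SST UMIs was 16.5% in human replicate 1 (exact 95% interval 12.9 to 20.5) and 20.9% in human replicate 2 (17.1 to 25.1). It was 6.87% in mouse replicate 1 (3.19 to 12.6) and 12.3% in mouse replicate 2 (9.15 to 16.1). Intervals of this kind cover counting error only. The depths differed between parts, so cells with at least 5500 UMIs were thinned to that number and gated again. This left 272, 308, 74 and 273 gated cells, where 395, 417, 131 and 374 were gated as deposited. In this changed set of cells the shares were 14.7%, 16.2%, 9.46% and 7.69% in the same order. The human shares were the higher pair at both depths, but at equal depth the interval of each mouse part has few cells behind it (7 of 74 and 21 of 273).

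Free RNA in droplets could place SST UMIs in cells that do not make it. The same share was read in progenitor-like cells with no NEFM and at least 2 UMIs of the progenitor factor SOX2. Asking for no NEFM also leaves out cells whose droplets held free NEFM RNA, so this share can be low by choice. The level of free RNA itself was not tested. The share was 0 of 1031 cells in human replicate 1, which allows up to 0.291%, and 1 of 832 in human replicate 2 (0.120%). In mouse it was 0 of 1010 cells in replicate 1, which allows up to 0.297%, and 4 of 1344 in replicate 2 (0.298%). These cells had median depths of 12653, 19383, 22601.5 and 36303.5 UMIs, above the 8911, 15363, 16321 and 25097 UMIs of the gated motor neurons. Among cells with a motor gene but only 1 to 4 NEFM UMIs, SST was at 2 or more UMIs in 0 of 57, 1 of 107, 0 of 96 and 2 of 147 cells. In all other cells with fewer than 5 NEFM UMIs the share was 0, 0.746%, 0.746% and 1.42% in the same order. This was above the progenitor-like share of the same part except in human replicate 1.

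Within the SST-positive cells the SST count was spread widely. The median was 7 SST UMIs per cell in human replicate 1, 10 in human replicate 2, 37 in mouse replicate 1 and 6.5 in mouse replicate 2, and the highest cell held 121, 197, 138 and 91. Of all SST UMIs, the gated motor neurons held 93.1% and 96.4% in the human parts and 73.8% and 72.1% in the mouse parts. In mouse, therefore, more of the SST signal lay in cells outside the gate than in human.

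**Figure D1:**
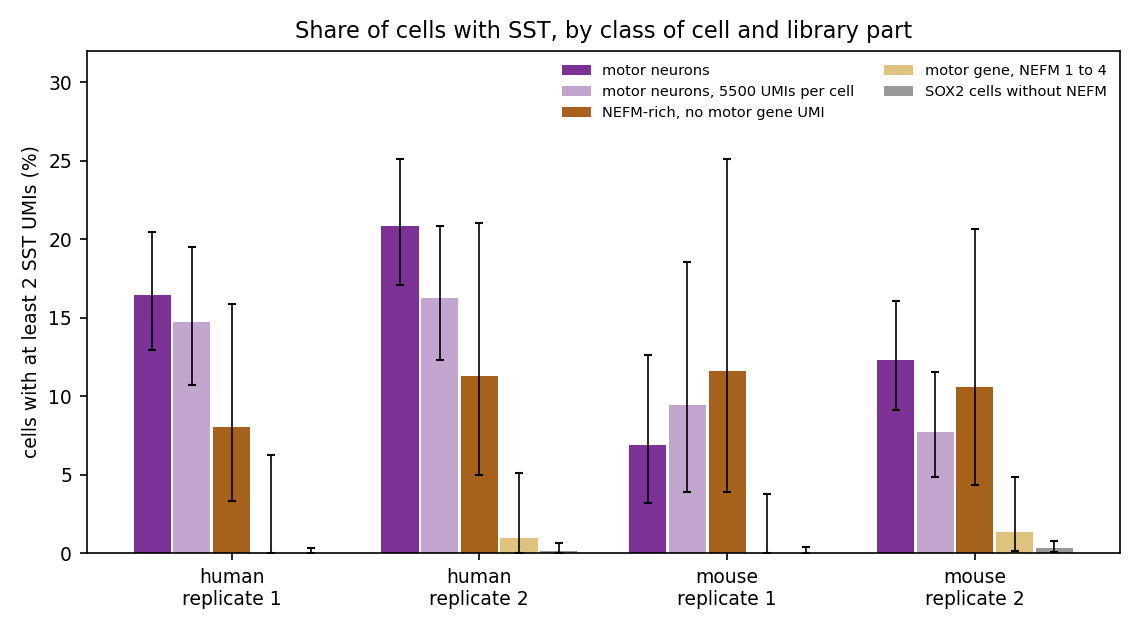
Share of cells with 2 or more SST UMIs (y axis, percent) in each library part. The classes are gated motor neurons as deposited, motor neurons gated again after thinning to 5500 UMIs, and cells outside the gate. Bars are shares and lines are exact 95% intervals of counting error; the gated bars stand between 6.87% and 20.9%, and the progenitor-like cells are at or below 0.298%.

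SST-positive cells were somewhat deeper and richer in NEFM than SST-negative cells. Median UMIs per cell were 9812 against 8739.5 in human replicate 1, 18194 against 14959 in human replicate 2, 18893 against 15866.5 in mouse replicate 1 and 27655 against 24571 in mouse replicate 2. Median NEFM counts were 36 against 25, 103 against 32, 51 against 17 and 71 against 39 UMIs. The NEFM gap remained per unit of depth, with median NEFM levels of 3831 against 2861 CPM (the gene's UMIs scaled to a common total) in human replicate 1 and 6370 against 2832 in human replicate 2. The mouse values were 2627 against 1059 and 2489 against 1725 CPM. The SST-positive median was the higher one in each part. The fits were therefore repeated with SST-negative cells matched one to one on depth and NEFM. They were also repeated with cells thinned and chosen again, which left fewer genes above the filter on low counts. In human replicate 2 the matched sides still differed in NEFM, at a median of 103 against 84 UMIs. Scrublet, a doublet caller, marked 0, 1, 1 and 2 SST-positive cells and 7, 8, 2 and 11 SST-negative cells in the order of parts above.

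**Figure D2:**
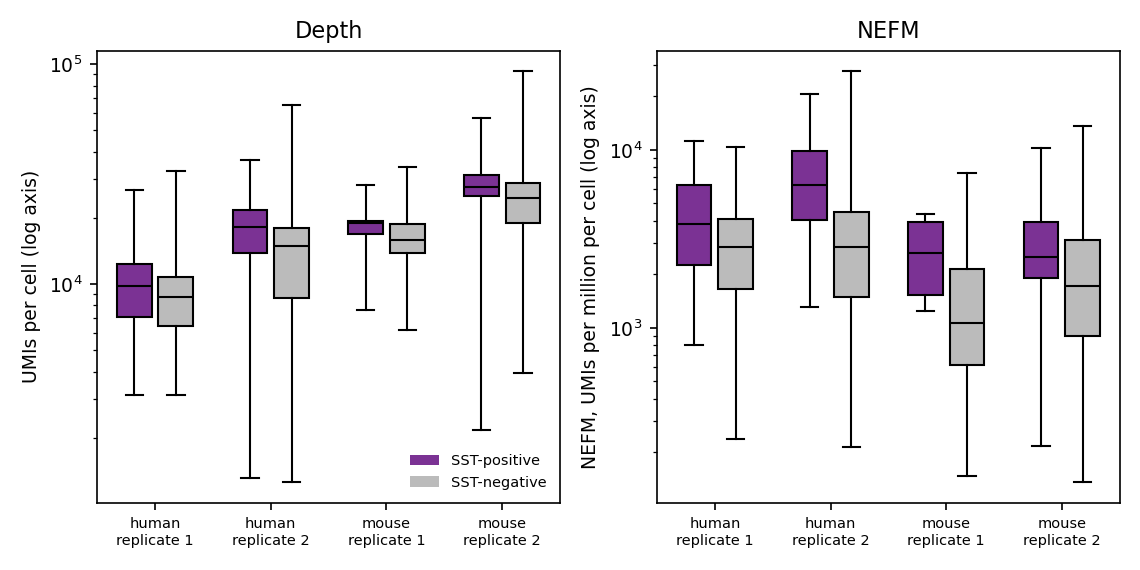
UMIs per cell and NEFM CPM per cell (log axes) on the SST-negative and SST-positive side of each part. Boxes give the median and quartiles and whiskers the lowest and highest cell; the SST-positive median is above the SST-negative one in all 4 parts for both measures.

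The genes of the gate describe what kind of motor neuron the rule picked. ISL1, a LIM factor of all early motor neurons, stood in SST-positive cells at 259.6, 595, 135 and 420.4 CPM (human replicates 1 and 2, mouse replicates 1 and 2), against 108, 268, 326 and 255 in SST-negative cells. MNX1, a homeodomain factor of motor neurons, was at 27.5, 181, 49.2 and 101 against 70.7, 319.9, 125 and 209.8 CPM. LHX3 was at 7.64, 13.6, 18.4 and 68.1 against 109, 82.9, 109.5 and 297 CPM. SST-positive cells were thus lower in MNX1 and LHX3 in all 4 parts, and higher in ISL1 in 3 of them. SLC18A3, the vesicular acetylcholine transporter, had at least 1 UMI in 87.7%, 67.8%, 88.9% and 84.8% of SST-positive cells and in 51.3%, 32.1%, 82.2% and 88.6% of SST-negative cells. As the gate asks for any 1 of 4 genes, a cell low in LHX3 and MNX1 had to hold ISL1 or SLC18A3, so these levels are tied to each other.

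The label was checked against motor neuron genes the rule did not use. CHAT, the enzyme that makes acetylcholine, was found in 1 of 65, 6 of 87, 3 of 9 and 21 of 46 SST-positive cells, and in 2 of 312, 12 of 315, 26 of 118 and 179 of 317 SST-negative cells. It was near absent on both sides in the human parts and present on both sides in mouse replicate 2. ISL2, a LIM factor of postmitotic motor neurons, had a UMI in 53.8%, 35.6%, 33.3% and 45.7% of SST-positive cells and in 61.2%, 47.0%, 16.9% and 45.4% of SST-negative cells. In human ISL2 was called lower in SST-positive cells (-1.06 ± 0.15, edgeR adjusted p = 3.0e-08). Most human cells of either side thus carry the label of motor neuron with no CHAT UMI found at this depth. A missing UMI does not show that the enzyme is absent.

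Counts were summed over the cells of each side and part and compared with edgeR's quasi-likelihood test, each part being its own block, over the 9031 genes that passed the filter on low counts. Over human replicate 1, human replicate 2 and mouse replicate 2, 14 genes were higher in SST-positive cells (0.155% of the genes tested) and 34 were lower (0.376%) at an adjusted p under 0.05. All 14 higher genes had the same sign in each of these parts and 13 of them also in mouse replicate 1; of the lower genes, 31 of 34 had the same sign in the 3 parts and 21 of 34 in mouse replicate 1. With mouse replicate 1 entered, 54 genes were higher (0.62%) and 97 lower (1.11%) of 8706 tested, and 45 of the 48 genes called without it were called again. Without human replicate 1 edgeR called 0 genes (543 had an unadjusted p under 0.05), although all 48 kept their direction and FOXP1 was at 1.57, RET at 1.82 and FABP7 at -2.30 on the log2 scale. With mouse replicate 1 in its place 15 of the 45 genes fitted were called. With the parts not treated as blocks edgeR also called 0 (277 had an unadjusted p under 0.05). With matched cells 13 of the 39 genes still fitted were called, and with thinned cells 23 of 36, all in the same direction.

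FOXP1 was higher in SST-positive cells of every part. Its level in SST-positive cells was 202 CPM in human replicate 1, 734 in human replicate 2 and 279.8 in mouse replicate 2, against 71.4, 176 and 126 CPM in SST-negative cells. Mouse replicate 1, outside the test, had 129 against 104 CPM. The SST-positive side was the higher one in each part, and the fitted log2 fold change was 1.51 ± 0.17 (SE, n = 3 parts, edgeR adjusted p = 0.00546). It was 1.36 in matched cells (adjusted p = 0.00212) and 1.2 in thinned cells (6.2e-10). In the human parts alone the change was 1.77 and in mouse replicate 2 it was 1.13, and the difference of 0.64 ± 0.19 passed the test (edgeR adjusted p = 0.0315). The mouse value is from a single library part, and the spread in this fit by species comes from the human parts alone, so that mouse replicate 2 is assumed to vary as they do.

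The rise was also one of cells with any FOXP1. A FOXP1 UMI was found in 78.5%, 83.9%, 88.9% and 93.5% of SST-positive cells (human replicates 1 and 2, mouse replicates 1 and 2) and in 36.5%, 52.7%, 72.9% and 73.2% of SST-negative cells. In cells thinned to 5500 UMIs and chosen again by the same rule, these shares were 62.5%, 74%, 42.9% and 81% against 28.5%, 37.2%, 35.9% and 38.7%. FOXP1 without LHX3 was the state of 76.9%, 72.4%, 66.7% and 54.3% of SST-positive cells, and of 24.0%, 36.8%, 37.3% and 19.9% of SST-negative cells. The state with LHX3 and without FOXP1 was held by 3.08%, 4.60%, 0 and 2.17% of SST-positive cells and by 30.8%, 24.1%, 9.32% and 22.4% of SST-negative cells. In mouse replicate 2 a further 39.1% of SST-positive cells held both factors, against 53.3% of SST-negative cells. LHX3 is a gene of the gate, so these joint states are a description.

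**Figure D3:**
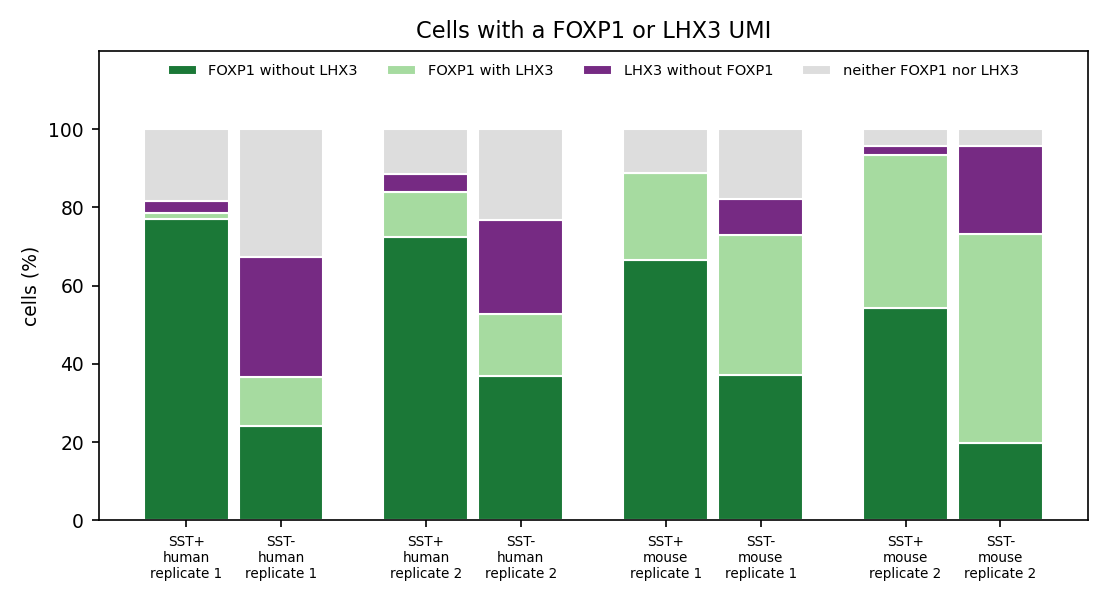
Share of cells (y axis, percent) in 4 states of FOXP1 and LHX3, by at least 1 UMI, for SST-negative and SST-positive cells of each part. FOXP1 without LHX3 takes 54.3% to 76.9% of SST-positive cells and 19.9% to 37.3% of SST-negative cells.

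LHX4 and EBF2 of the median and hypaxial column list were lower in SST-positive cells. LHX4, the close relative of LHX3, was at 6.11, 9.54 and 93.7 CPM in SST-positive cells of the tested parts against 45.0, 84.2 and 204, and at 36.9 against 142 CPM in mouse replicate 1. A LHX4 UMI was found in 6.15%, 11.5%, 33.3% and 54.3% of SST-positive cells (human replicates 1 and 2, mouse replicates 1 and 2) and in 31.1%, 44.8%, 66.1% and 81.4% of SST-negative cells, so that single cells of the sides overlapped. LHX4 fell by 1.93 on the log2 scale (SE 0.33, n = 3 parts, edgeR adjusted p = 0.0439). The fall was 3.16 in human and 1.15 in mouse replicate 2, a difference of -2.02 ± 0.36. In matched cells LHX4 was at -1.68 over all parts and not called (edgeR adjusted p = 0.091). EBF2, a helix-loop-helix factor of developing neurons, stood at 6.11, 2.73 and 5.13 CPM against 22.9, 12.1 and 23.2 and fell by 2.16 (SE 0.30, edgeR adjusted p = 0.0164). EBF2 had 0 UMIs in the 9 SST-positive cells of mouse replicate 1. Without progenitor or cycling cells EBF2 was at -1.01 (adjusted p = 0.647), and it had too few counts for the fits of matched or thinned cells. The other 7 of the 9 tested members of this list were not called, while 0.376% of all genes were called lower. The median over the list was 0.10 on the log2 scale beside -0.03 over all genes tested. Over the list 5 estimates were positive and 4 negative. Of this list, EBF1, EBF3 and NR2F1 were called higher in mouse replicate 2 and LHX4, EBF2 and POU2F2 lower, beside 1.65% of all genes called in either direction.

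Of the 7 tested genes of the limb and preganglionic column list, FOXP1 and ALDH1A2 were called higher and none lower. Over all genes 0.155% were called higher. The list median was 0.41 on the log2 scale, beside -0.03 over all genes. ALDH1A2, the enzyme that makes retinoic acid in limb-level motor neurons, was at 45.0 against 11 CPM in human replicate 2 and at 19 against 5.37 in mouse replicate 2. In human replicate 1 it was at 1 UMI on each side, and in mouse replicate 1 at 0 and 2 UMIs. The call (1.89 ± 0.27, edgeR adjusted p = 0.0168) therefore rested on human replicate 2 and mouse replicate 2. In matched cells ALDH1A2 was at 1.70 and not called (edgeR adjusted p = 0.392). It was a gene of few cells: 1.54%, 16.1%, 0 and 15.2% of SST-positive cells held a UMI. In the human parts, edgeR called 5 of the 7 genes higher, beside 6.12% of all genes tested (1 residual degree of freedom), and ETV4, an ETS factor of limb motor pools, was among them with 36.6 against 5.63 and 80.4 against 28.7 CPM (1.68 ± 0.24, adjusted p = 9.9e-08). Without LHX3 or LHX4 cells ETV4 was at 0.51 (adjusted p = 0.61). ZEB2, a zinc finger factor, was the one member called lower in human (-1.27 ± 0.26, edgeR adjusted p = 2.0e-04). POU3F1, also known as SCIP, rose by 1.19 in human and fell by 1.03 in mouse replicate 2, and the difference was 2.22 ± 0.26 (edgeR adjusted p = 1.5e-09).

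The genes at the threshold of the rule were read once, with no test. FOXP1 in cells with exactly 1 SST UMI, which were left out of both sides, stood at 329, 210.4 and 333 CPM in human replicates 1 and 2 and mouse replicate 2, from 18, 15 and 11 cells. In cells with 2 to 4 SST UMIs it stood at 192, 966 and 343 CPM, and LHX3 at 0, 13.1 and 80.1 CPM. LHX3 in the 1-UMI cells was at 40.3, 14.3 and 86.4 CPM. In CPM, the cells just outside the threshold were thus nearer to the SST-positive side in both genes, except for FOXP1 in human replicate 2 and for both genes in mouse replicate 1. There the 4 cells with 1 SST UMI had 16 CPM of FOXP1 and 239.5 CPM of LHX3. The LHX3 level in human replicate 1 rested on 6 UMIs in 3 of the 18 cells. On the log2 scale it was nearer to the SST-negative side. In cells with 20 or more SST UMIs FOXP1 stood at 162, 615 and 333 CPM, no higher than in cells with 2 to 4. The cells in between are not given here, and a trend with the SST count was not tested.

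RET, the receptor of glial cell line-derived neurotrophic factors, was also higher in every part. It was at 38.2, 84.5 and 64.4 CPM in SST-positive cells of the tested parts against 11.3, 13.2 and 29.1, and at 24.6 against 12.6 CPM in mouse replicate 1. SST-positive cells were the higher side in every part (1.77 ± 0.28, edgeR adjusted p = 0.0286), and RET was called again in matched cells (adjusted p = 0.0447). The rise was larger in human than in mouse replicate 2 by 1.16 ± 0.36 (edgeR adjusted p = 0.0439). A RET UMI was found in 23.1%, 60.9%, 22.2% and 58.7% of SST-positive cells and in 7.05%, 10.8%, 12.7% and 31.2% of SST-negative cells (human replicates 1 and 2, mouse replicates 1 and 2). RET was the 1 of 10 tested motor neuron identity genes called higher and LHX4 the 1 called lower, beside 0.155% and 0.376% of all genes. CHAT (-0.12 ± 0.30) and the choline transporter SLC5A7 (-0.07 ± 0.18) were not called.

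A gene of excitability and a gene of contact between neurons, SCN9A and CLSTN2, were among the other called rises. SCN9A, a voltage-gated sodium channel, was at 9.16, 55.9 and 60.1 CPM against 1.76, 13.7 and 21 (1.75 ± 0.22, edgeR adjusted p = 0.0101), and at 3 and 5 UMIs in mouse replicate 1 (18.4 against 2.62 CPM). It was the 1 gene called of the 20 ion channel and transmitter receptor genes tested, beside 0.155% of all genes called higher. CLSTN2, a synaptic adhesion protein of the cadherin superfamily, was at 36.6, 138 and 52.0 CPM against 10.9, 38.4 and 21, and at 49.2 against 12.6 in mouse replicate 1 (1.56 ± 0.17, edgeR adjusted p = 0.00546). The SST-positive side was above the SST-negative one in all 4 parts for SCN9A and CLSTN2. In matched cells CLSTN2 was called (1.35, edgeR adjusted p = 0.0181), while SCN9A was at 1.41 and not called (0.0729).

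PDLIM1, an adaptor between the actin cytoskeleton and kinases, rose to 1455 and 1319 CPM from 488 and 448 in the human parts. In mouse replicate 2 it was scarce, at 9.52 against 3.12 CPM (13 and 25 UMIs). In mouse replicate 1 it was at 43.0 against 7.86 CPM, where all 7 UMIs of the SST-positive side lay in 1 cell. The fitted change was 1.47 ± 0.13 (edgeR adjusted p = 0.00339) and 1.31 in matched cells (adjusted p = 0.00699). The species thus differed in level by far more than in the fold between the sides.

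IRX3, IRX5, ID4 and HOXB5 were among the smaller rises. IRX3 and IRX5, homeodomain factors of the Iroquois family, rose by 1.05 and 1.03 on the log2 scale, and ID4, an inhibitor of helix-loop-helix factors, by 1.05. In mouse replicate 1 they stood at 184, 129 and 36.9 CPM against 23.1, 23.1 and 6.81. The ID4 level there rested on 6 UMIs in 2 SST-positive cells. HOXB5 was the 1 of 26 tested HOX genes that was called, beside 0.155% of all genes called higher. It stood at 115, 71.5 and 409 CPM against 58.7, 37.0 and 271 (0.73 ± 0.12, edgeR adjusted p = 0.0431). Mouse replicate 1 had 418 against 423 CPM of HOXB5, and with that part entered the adjusted p was 0.158. In matched cells none of IRX3, IRX5, ID4 and HOXB5 was called (adjusted p = 0.164, 0.125, 0.0903 and 0.166). Of these genes, ID4 alone was called in thinned cells (0.74, edgeR adjusted p = 0.0136), where IRX5 was at 0.51 (0.712). The HOX genes as a list had a median of -0.01.

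**Figure D4:**
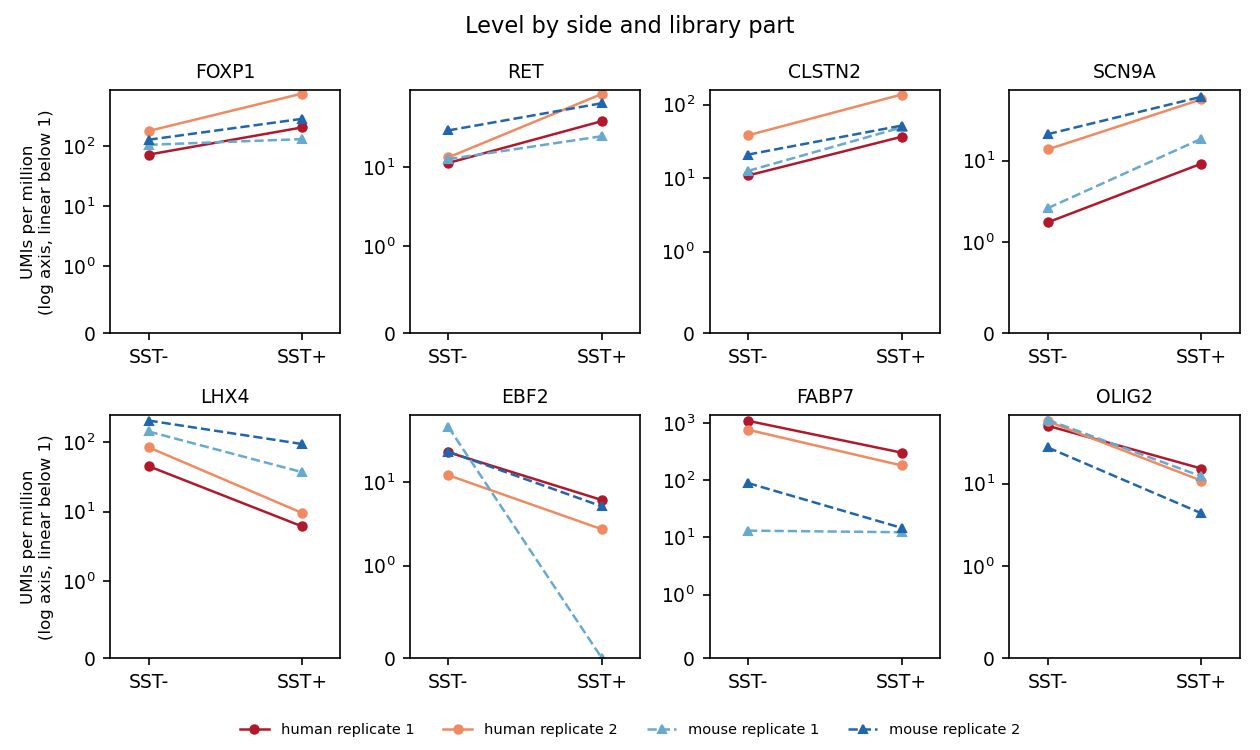
Level (CPM, log axis that is linear below 1) of FOXP1, RET, CLSTN2, SCN9A, LHX4, EBF2, FABP7 and OLIG2 on the SST-negative and SST-positive side, each line joining the sides of 1 part. The first 4 genes are higher and LHX4, EBF2, FABP7 and OLIG2 lower on the SST-positive side of every tested part; FABP7 was near level in mouse replicate 1.

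Progenitor and early neurogenic genes made up 8 of the 34 lower genes. OLIG2, the factor of motor neuron progenitors, was at 15.3, 10.9 and 4.39 CPM in SST-positive cells against 50.3, 57.1 and 27.5, and fell by 2.33 (SE 0.23, edgeR adjusted p = 0.00457); mouse replicate 1 had 12.3 against 59.2 CPM. HES5, a Notch effector of progenitors, was at 9.16, 19.1 and 5.13 CPM against 18.3, 81.6 and 61.5 and fell by 2.44 (SE 0.32, edgeR adjusted p = 0.0115); in mouse replicate 1 it was at 2 and 12 UMIs. Of 14 tested progenitor genes, 5 were called lower (HES5, OLIG2, NKX6-2, SOX3 and TOP2A) and none higher. Their median was -0.97 beside -0.03 over all genes, of which 0.376% were called lower. Of 15 tested early neurogenic genes, 3 were called lower (HES6, NHLH1 and NEUROD4) and none higher, and all 15 had a negative estimate with a median of -1.08. NEUROD4, a helix-loop-helix factor of young neurons, was at 10.7, 25.9 and 2.20 CPM against 48.5, 113 and 12.9 (-2.26 ± 0.20, edgeR adjusted p = 0.00339), and at 0 against 61.3 CPM in mouse replicate 1. With mouse replicate 1 entered, the counts were 7 of 14 and 10 of 15 lower, beside 1.11% of all genes. In matched cells NHLH1 was the 1 of these 8 genes called. OLIG2 was then at -1.65 (adjusted p = 0.0903), HES5 at -1.50 (0.324), SOX3 at -0.85 (0.647), NEUROD4 at -1.53 (0.108) and HES6 at -0.71 (0.116), while TOP2A and NKX6-2 had too few counts.

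Several of the lower genes were held by a minority of the SST-negative cells. OLIG2 was found in 29.5% and 40.3% of SST-negative cells in human replicates 1 and 2 and in 11% in mouse replicate 2, where the 5 cells with most OLIG2 held 55% of its UMIs. In SST-positive cells the shares were 12.3%, 12.6% and 10.9%. UBE2C, a ubiquitin enzyme of mitosis, fell with CENPF, CCNB1, NUSAP1 and TOP2A, and 5 cells held 89.4%, 48.9% and 42.5% of its UMIs on the SST-negative side of the tested parts. With every cell left out that held a UMI of SOX2, HES5, OLIG2, TOP2A or MKI67, edgeR called 10 genes higher and 23 lower, and 22 of the 37 genes still fitted were called again. FOXP1 (1.23, adjusted p = 0.000194), CLSTN2 (1.21, 0.00709) and RET (1.49, 0.0042) were among them.

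FABP7, a fatty acid-binding protein of radial glia, had the smallest adjusted p of all genes. FABP7 and SFRP2 lay in no fixed list and were named after their values were seen, while RGS16 was named by rank. FABP7 was at 302, 181 and 14.6 CPM against 1088, 759.6 and 88.9 and fell by 2.17 (SE 0.14, edgeR adjusted p = 0.000532). It was found in similar shares of cells on both sides, 73.8%, 71.3% and 28.3% of SST-positive against 83.7%, 78.1% and 28.7% of SST-negative cells, so that the gap lay in UMIs per cell. In mouse replicate 2, 5 SST-negative cells held 81.5% of its UMIs, and mouse replicate 1 had 12.3 against 13.1 CPM. RGS16, a brake on G protein signalling, fell from 644 and 1096 CPM to 107 and 92.7 in human and stood at 7.32 against 9.74 in mouse replicate 2 and 12.3 against 42.5 in mouse replicate 1. SFRP2, a secreted Wnt antagonist, was at 26.0, 32 and 11 CPM against 98.1, 179 and 21.7 (-2.08 ± 0.25, edgeR adjusted p = 0.0086), and at 2 and 21 UMIs in mouse replicate 1, where the SST-positive side was the higher one per UMI.

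The calls over all parts were then read without the cells that held LHX3 or LHX4. Whether the sides differ in column or in stage was not tested. With every cell left out that held an LHX3 or LHX4 UMI, 59, 69 and 15 SST-positive cells remained in the tested parts against 147, 133 and 35 SST-negative cells. FOXP1 was called with a log2 fold change of 0.97 (adjusted p = 0.000361 by edgeR), CLSTN2 with 1.07 (0.00687) and RET with 1.09 (0.0366). PDLIM1 was at 0.60 (0.0185) and FABP7 at -0.96 (0.00765). These 5 changes were smaller than over all gated cells. Others were not called: ALDH1A2 was at 0.71 (adjusted p = 0.373), HOXB5 at 0.19 (0.711) and NEUROD4 at -0.86 (0.283). Some mitotic genes moved further, with UBE2C at -4.07 and CCNB1 at -3.30. All 41 genes still fitted kept their direction, and 25 were called again.

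**Figure D5:**
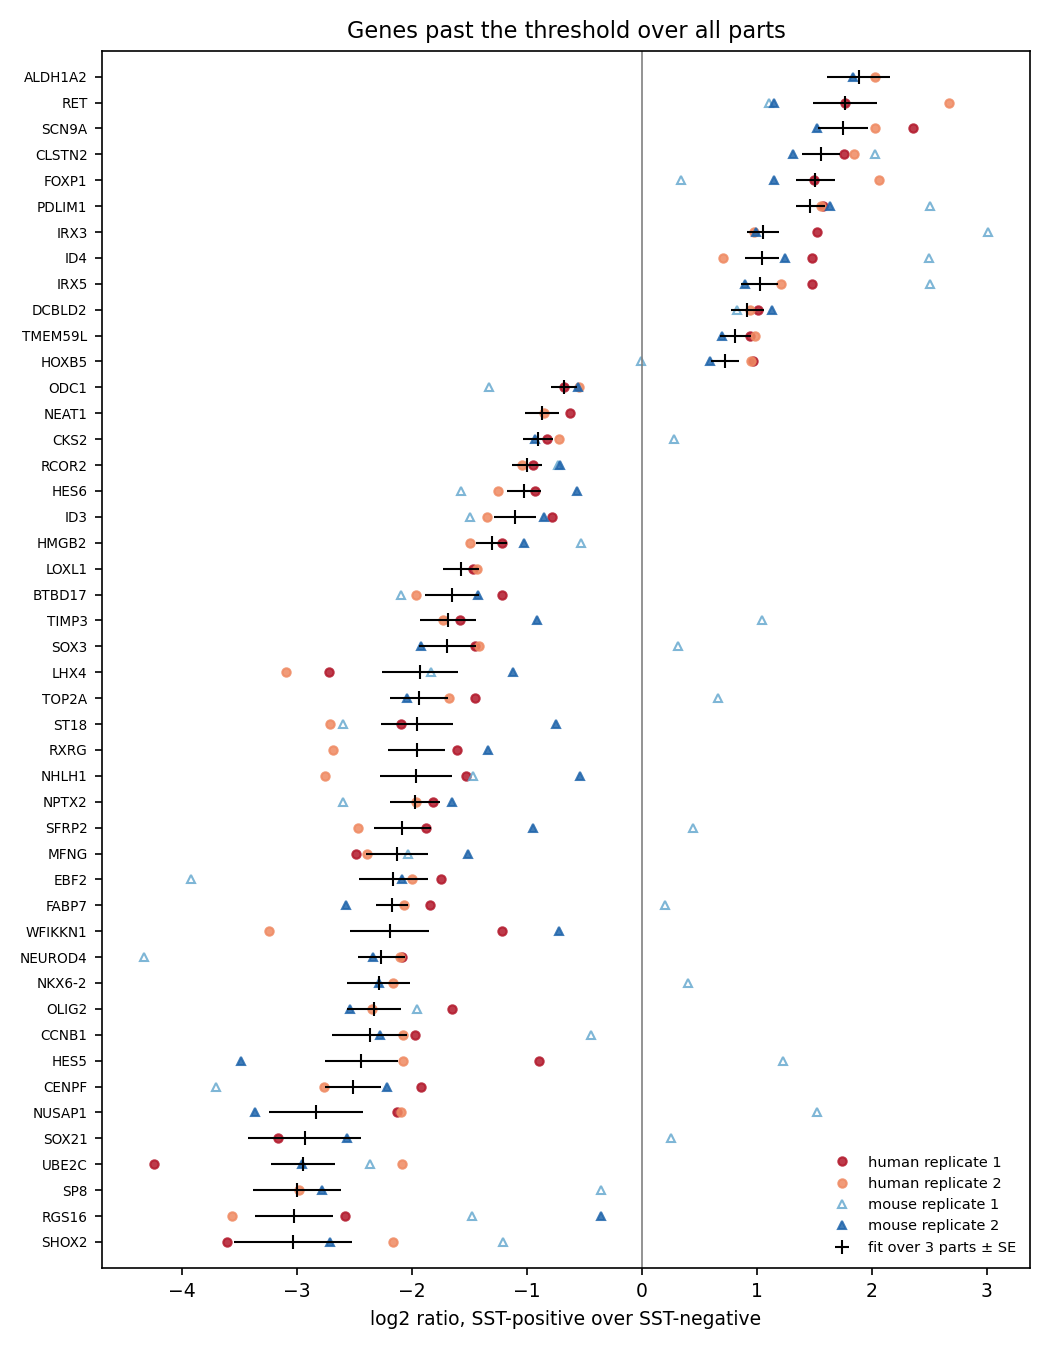
Log2 ratio of SST-positive to SST-negative level for 46 of the 48 called genes, 1 symbol per part (mouse replicate 1 hollow and not in the fit; parts with fewer than 10 UMIs over both sides omitted) and the fitted value with its SE over 3 parts. The rises lie between 0.73 and 1.89, and the falls reach -3.03.

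In the human parts alone the same model called 553 genes higher (6.12% of 9031) and 596 lower (6.6%). This contrast has only 1 residual degree of freedom, and DESeq2's test called 57 and 128. Adjusted p-values of single human genes in all paragraphs are from this contrast. Of 140 genes called in it that the naming rule picked, DESeq2's test called 46. With edgeR, 80 of 122 still fitted were called in matched cells and 45 of 109 in thinned cells. Without LHX3 or LHX4 cells it was 22 of 126, and with no replicate block 0 of 140. The neurofilaments and maturation list had 12 of 20 tested members higher and none lower (median 0.42, beside -0.00 over all genes). STMN2, a tubulin-binding protein of growing axons, rose from 2751 and 3028 to 5393 and 5516 CPM (0.81 ± 0.07, edgeR adjusted p = 1.0e-16). MAPT, the axonal protein tau, rose from 62.2 and 89.1 to 139 and 233 CPM (1.2 ± 0.12), and DCX, a microtubule protein of young neurons, from 495 and 484 to 844 and 959.9 CPM (0.78 ± 0.09). NEFM, which the gate used, was higher on the same side. In cells matched on depth and NEFM, edgeR called 7 of 19 tested members higher in human, beside 217 of all 8244 genes. STMN2, MAPT and DCX were among these 7. Without LHX3 or LHX4 cells it called 1 member higher (STMN2), beside 13 of all 7727 genes. NEFL, not read in human replicate 1, was at 4558 against 2321 CPM in human replicate 2, 3300.1 against 1349 in mouse replicate 1 and 3692 against 3040.4 in mouse replicate 2.

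The peptide secretory pathway list, which holds the machinery that somatostatin would pass through, had 8 of 18 tested members higher and 2 lower in human (median 0.41), beside 6.12% and 6.6% of all genes. PCSK1N, an inhibitor of the prohormone convertase PCSK1, stood at 418 and 987 CPM in SST-positive cells against 121 and 279 (1.71 ± 0.10, edgeR adjusted p = 2.2e-23). The granins CHGB, SCG2, SCG5 and VGF, which are packed in dense core vesicles, rose by 0.79, 0.70, 0.83 and 1.18; SCG2 was at 0.10 in matched cells (adjusted p = 0.907) and at -0.13 without LHX3 or LHX4 cells. SYT4, a synaptotagmin of dense core vesicles, was at 93.1 and 222 against 36.9 and 56.2 CPM (1.68 ± 0.15), but at -0.018 in thinned cells and 1.47 in matched cells. PCSK2, a prohormone convertase, fell by 1.12 (SE 0.19, edgeR adjusted p = 3.6e-06), and CADPS, a priming factor of vesicle release, by 0.50. In mouse replicate 2, 0 of the 18 were called by edgeR, beside 149 of all 9031 genes, and 0 by DESeq2, beside 1. Before adjustment 4 of the 18 were under 0.05 by edgeR, beside 684 of all genes. Over all 3 parts edgeR called 0 of the 18, beside 48 of all genes, and DESeq2 called 2, beside 60. Before adjustment 7 were under 0.05 by edgeR there, beside 1019 of all genes. A count of 0 in 18 is thus near the share over all genes. PCSK1N was at 442 against 426 CPM in mouse replicate 2, and its difference between species was 1.67 ± 0.16 (edgeR adjusted p = 6.4e-12). The convertase PCSK1 had 0 to 6.13 CPM and was not tested.

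Of 29 tested axon guidance genes, 10 were called higher and 3 lower in human (median 0.27), beside 6.12% and 6.6% of all genes, so that the lower count is near that share. PLXNA4, a semaphorin coreceptor, rose from 2.81 and 10.8 to 12.2 and 53.1 CPM (2.18 ± 0.30), and SEMA3A, a secreted semaphorin, from 7.03 and 9.48 to 27.5 and 30.0 (1.67 ± 0.31). SLIT2, a repellent ligand of ROBO receptors, rose by 0.88 ± 0.11. CXCR4, the chemokine receptor, fell from 587 and 170.2 to 234 and 55.2 CPM (-1.57 ± 0.12), and CNTN2, an adhesion protein of early axons, from 199 and 354 to 96.2 and 102 (-1.63 ± 0.13). Neither CXCR4 nor CNTN2 was called in mouse replicate 2, and their differences between species were -1.98 ± 0.23 and -1.36 ± 0.20 (edgeR adjusted p = 8.6e-10 and 9.8e-07). Among transmitter receptors, the glutamate receptor subunits GRIA2 and GRIA4 rose by 1.43 and 1.72 in human and the nicotinic subunit CHRNA3 fell by 1.27.

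Mouse replicate 2 is the only mouse part in the test, so its contrast rests on 46 SST-positive cells of 1 library, and the spread behind its p-values is that of the human parts. It had 67 genes higher and 82 lower (1.65% of genes tested), against 1 with DESeq2. PRPH, the intermediate filament peripherin, was at 468 against 243 CPM (0.92 ± 0.15, edgeR adjusted p = 8.3e-06), and in human at 51.9 against 29.5 and 115 against 136 CPM. ONECUT2, a factor of early-born neurons, was at 508 against 254 CPM (0.98 ± 0.14, edgeR adjusted p = 3.7e-07), and at 436 against 178 in mouse replicate 1. CALB2, the calcium-binding protein calretinin, was at 49.8 against 10.5 CPM in mouse replicate 2 and at 0 against 1.57 in mouse replicate 1. PRPH and ONECUT2 thus had the same direction in both mouse parts, while CALB2 was too scarce in mouse replicate 1 to give one.

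The effect of side differed between species for 161 genes in one direction and 211 in the other (4.12% of genes tested), with 18 and 36 once mouse replicate 1 was entered. In that larger fit POU3F1, LHX4, PCSK1N, PCSK2, SLIT2, CXCR4 and CNTN2 were among the genes called different. FOXP1 and RET were not called different there.

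Other peptide genes were read on both sides without comparison to SST, which chose the cells. CALCB, the beta form of calcitonin gene-related peptide, was the 1 neuropeptide gene of 5 tested that was called in human. Over all genes 6.12% were called higher there. CALCB was at 32.1 and 29.3 CPM against 6.68 and 12.3 (1.49 ± 0.32, edgeR adjusted p = 0.00026), and had 0 UMIs in the mouse parts. NMU, neuromedin U, was at 41.2 and 100.8 CPM in SST-positive cells against 42.2 and 74.1 in human. CARTPT was found in mouse only, at 98.3 against 52.9 and 18.3 against 44.2 CPM. Galanin (GAL) was at 0 to 7.49 CPM in SST-positive cells and VIP at 0 in every part. Of the somatostatin receptors, SSTR2 was at 3.05, 10.2, 6.15 and 2.20 CPM in SST-positive cells against 3.16, 38.4, 25.7 and 2.37 (human replicates 1 and 2, mouse replicates 1 and 2) and was not tested. SSTR4 had no UMI on either side, and SSTR1, SSTR3 and SSTR5 were at most at 1.53 CPM.

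Markers of other cell types were read on both sides. The 28 genes of other spinal neurons summed to 30.5, 10.9, 18.4 and 222 CPM in SST-positive cells and to 28.5, 46.7, 74.9 and 156 in SST-negative cells (human replicates 1 and 2, mouse replicates 1 and 2), with 23, 21, 27 and 9 of the 28 at 0 on the SST-positive side. EN1, a factor of V1 interneurons, was at 0 in human SST-positive cells and in those of mouse replicate 1. It was found in 6 of 46 SST-positive cells of mouse replicate 2 (13%), against 14 of 317 SST-negative cells (4.42%). The 14 markers of mesenchyme, epithelium and crest summed to 109.9, 55.9, 0 and 26.4 CPM against 42.9, 121, 2.62 and 8.87; the keratin KRT8 was in 47.7% of SST-positive and 15.4% of SST-negative cells of human replicate 1. The part of these markers in the results was not tested.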

How the data were processed

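The authors deposited raw UMI counts per gene and cell for 4 library parts; Cell Ranger 3.1.0 with the builds hg38 and mm10 is named per the submitters' processing notes. The annotation and the empty droplet step are not given in the sources used here. Symbols were upper-cased (15472 in all parts). Cells needed 1000 UMIs, 500 genes and at most 10% mitochondrial UMIs. Doublets were marked with Scrublet (scanpy 1.11.5) and kept. Counts were summed per part and side and tested with edgeR 4.0.16 (R 4.3.3): TMM, filterByExpr, quasi-likelihood, Benjamini-Hochberg over all genes, the part as block because both sides come from the same library; 2 residual degrees of freedom over all parts, and 1 in the fit by species, from the human parts. The script was tested on simulated data. Alternatives: DESeq2 1.42.0, filters, thresholds, thinning to 5500 UMIs, matching, parts left out, cells left out; the settings with mouse replicate 1 and without LHX3, LHX4, progenitor or cycling cells were added after seeing the data. Genes are named by rank (15 highest and 10 lowest over all parts with 20 or more UMIs; 10 and 5 per species) and by membership of fixed lists, with exceptions marked; a few genes are not reported here. The members and lists were chosen with earlier results of these data known.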

Additional observations from a re-analysis of the deposited data

Results flagged for a closer look

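The edgeR test of the difference itself called the effect of side different between human and mouse for 372 genes. Given here are 9 from its largest and smallest differences, as human minus mouse on the log2 scale. Mouse is mouse replicate 2 alone. DESeq2's test called 30 genes, and edgeR with mouse replicate 1 entered called 54. Whether these 9 were among them is not given here. Where a side has no UMI the fitted number depends on the prior count and is no bound. The value was 7.02 for NRGN, at 3.05 and 11.6 CPM against 0.352 and 5.73 in human and 0.732 against 46.0 in mouse. It was -6.30 for SCT, the gene of secretin, at 0 and 0.681 CPM against 3.52 and 26.5 in human and 117 against 58.5 in mouse. It was 4.15 for CHODL, a marker of fast motor neurons, at 32.1 and 42.9 CPM against 23.6 and 25.1 in human and 2.20 against 26.5 in mouse. C1QL4 had 4.30, at 12.2 and 60.6 CPM against 2.11 and 9.04 in human and 2.20 against 7.0 in mouse. OPCML had 4.35, at 11.7 against 62.1 CPM in mouse and at most 5.45 in human. ASS1 had -5.32, from 1 UMI in human SST-positive cells. IFITM2 had -7.11 and NEXN -8.13, each with 0 UMIs in human SST-positive cells, and GPRC5B had 7.0 with 0 UMIs in SST-positive cells of mouse replicate 2.

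SST was also found outside the gate, in cells with 5 or more NEFM UMIs and no UMI of ISL1, MNX1, LHX3 or SLC18A3. The share with 2 or more SST UMIs was 8.05% (7 of 87) in human replicate 1, 11.3% (8 of 71) in human replicate 2, 11.6% (5 of 43) in mouse replicate 1 and 10.6% (7 of 66) in mouse replicate 2, all above the progenitor-like cells of the same part.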

How the results depend on the processing

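All 48 genes called over all parts kept their direction under every setting that fitted them, but counts of called genes moved widely; the cause was not tested. Over all parts, 48 became 0 to 1266 on leaving out 1 part (0 without human replicate 1). They became 527 with no filter on low counts, 143 with a minimum of 20 UMIs, 0 with no replicate block (277 at an unadjusted p under 0.05), 132 with SST at least 1, 139 with SST at least 5, 107 thinned, 15 matched and 104 without LHX3 or LHX4 cells. In human, 1149 became 185 with DESeq2, 0 with no replicate block (285 unadjusted), 599 with SST at least 1, 265 thinned, 520 matched, 59 without LHX3 or LHX4 cells and 432 without progenitor or cycling cells. In mouse, 149 became 1 with DESeq2, 231 with no filter, 0 with no replicate block (73 unadjusted), 51 with SST at least 1, 13 thinned, 32 matched, 85 with NEFM at least 10, 1 without LHX3 or LHX4 cells and 64 without progenitor or cycling cells. The difference between species, 372, became 30, 0 (99 unadjusted), 71, 20, 196, 0 (433 unadjusted) and 133 with DESeq2, no replicate block, SST at least 1, thinned, matched, and without LHX3 or LHX4 and progenitor or cycling cells.

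With mouse replicate 1 entered, edgeR called 151 genes over all parts, 465 for human, 72 for mouse and 54 for the species difference. Leaving out another part as well gave 17 to 725, 69 to 1075, 60 to 216 and 18 to 56 in that order (17, 131, 60 and 46 without human replicate 1; 69, 95 and 18 for the last 3 without human replicate 2; 725 and 56 for the first and last without mouse replicate 2), and matching gave 31, 185, 21 and 53. The share with SST moved to 21% and 9.87% in human replicate 1 with SST at least 1 and at least 5, to 16.2% thinned and 15.3% with SST at least 5 in human replicate 2, and to 7.69% and 6.95% in mouse replicate 2.

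Signs reversed as follows. POU3F1 over all parts ran from -0.80 without human replicate 2 to 1.22 without mouse replicate 2, and SEMA3C from -0.77 without human replicate 1 to 0.46 without mouse replicate 2. In human, thinning gave -0.38 for NFIA and -0.018 for SYT4, human, leaving out LHX3 or LHX4 cells gave -0.13 for SCG2, and 1 further planned setting gave -0.91 for PTN. With mouse replicate 1 and without human replicate 2, the human values were -3.31 (MTUS2, human), 0.17 for INSM1, -0.11 for NR2F1, -0.21 for NR2F2 and -0.39 for NRP1. Depth limits genes of few UMIs, and the fit by species has 1 residual degree of freedom, from the human parts.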

Other observations

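Several genes outside the lists stood out in human SST-positive cells. ARHGAP36, a regulator of protein kinase A and hedgehog signalling, was at 24.4 and 38.2 CPM against 4.57 and 2.20 in the human parts (3.29 ± 0.34 on the log2 scale, edgeR adjusted p = 2.5e-12). It was at 117 against 9.96 CPM in mouse replicate 1 and at 96.7 against 77.3 in mouse replicate 2, so that the mouse parts differed from each other. CBLN2, a secreted synapse organizer, was at 18.3 and 33.4 CPM against 4.22 and 4.19 (2.60 ± 0.36, edgeR adjusted p = 4.1e-08), and FLRT1, an adhesion protein, at 22.9 and 14.3 against 4.92 and 2.43.

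In mouse replicate 2, PTN, the secreted growth factor pleiotrophin, was at 278 against 74.6 CPM, a log2 fold change of 1.87 from a single library. CRABP1, which binds retinoic acid in the cytoplasm, was at 5338 against 1348 CPM there and at 5924 against 3197 in mouse replicate 1. In human it went opposite ways in the lines, at 1512 against 325 CPM in human replicate 1 and 672 against 1655 in human replicate 2. Among HOX genes, HOXC8 was higher in human, at 632 and 1657 CPM against 376 and 646 (0.98 ± 0.10). HOXC9 was at 437 and 243 against 234 and 150.2 (0.68 ± 0.11). Whether a range of HOX genes moved together was not tested. HOXB4 fell by 0.90 in human. Of 13 temporal factors tested in human, NFIA was called higher and 6 were called lower, beside 6.12% and 6.6% of all genes; NFIA was at -0.38 in thinned cells.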
